A study of Mus musculus with 12 samples.

Results

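The S phase and DNA replication genes are 46 genes, of 21960 listed for each tumor, selected from those that copy DNA or prepare a cell to copy it. They were chosen by function, as core parts of the replication machinery with the G1/S regulators that switch them on. All 46 were listed in the data, are protein coding, and passed the filter on low values, which asked for at least 1 TPM in at least 3 of the tumors in a comparison. By role they comprise 5 origin licensing genes, 7 MCM genes, 5 genes for Cdc45 and GINS, 8 genes for the replicative polymerases and primase, 6 for the sliding clamp and its loader, 2 for the joining of Okazaki fragments, 5 for deoxynucleotide supply, 4 G1/S regulators and 4 for the copying of chromatin.

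RNA was sequenced from 12 whole mammary tumors of PyMT mice on the C57BL/6 background, in which the polyoma middle T antigen, a viral oncogene, is expressed in the mammary epithelium under a mammary tumor virus promoter. Each of 4 groups had 3 tumors. The IgG1 group received an isotype control antibody and the anti-PD-1 group an antibody that blocks the T cell checkpoint receptor PD-1, each from a tumor diameter of 0.6 cm, with a first dose of 20 mg/kg and doses of 10 mg/kg every 6 days up to day 18. The DOX/IgG1 and DOX/anti-PD-1 groups started at 1.0 cm and received 5 mg/kg doxorubicin, an anthracycline that poisons topoisomerase II, once a week for 5 weeks, with 10 mg/kg of the antibody 1 day after each dose. The larger starting size and the other antibody schedule therefore cannot be told apart from doxorubicin itself. The labels also give a weekly schedule over 5 weeks for every group, and they give no age for the mice.

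A chromosome is copied from many origins. In G1 the origin recognition complex, Cdc6 and Cdt1 load rings of MCM helicase onto DNA, and at the start of S phase Cdc45 and GINS join the rings to make a working helicase. Primase and the polymerases then copy both strands, held on DNA by the Pcna clamp, while cyclin E and the E2F factors raise the transcription of many of these genes as a cell leaves G1, so that their mRNA is abundant in tissue with many dividing cells.

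The deposited values are TPM, a transcript share scaled to length and to a fixed library total, on a log2 scale. They hold no counts of reads, which leaves the sequencing depth unknown. Genes listed at 0 numbered from 6534 in anti-PD-1 replicate 3 to 8104 in DOX/IgG1 replicate 1, and replicate 1 had the most in each group. The listed genes summed to between 609418.44 and 725505.63 TPM in a tumor. DOX/IgG1 replicate 1 had the lowest median correlation with the other 11 tumors, 0.884 over 14735 genes. The header of its column carries the word test. DOX/anti-PD-1 replicate 3 was next at 0.888, and the other 10 lay between 0.901 and 0.924. The 3 DOX/anti-PD-1 columns end in another suffix than the rest, and what either mark stands for is not given, so a processing step that differed there cannot be told apart from the group. Of 11 epithelial markers none was at 0 in any tumor. Epcam, the most abundant of them, ranged from 418 to 954 TPM, so each library of this epithelial tumor held epithelial mRNA.

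All but 2 of the members, Gmnn and Gins1, were above 0 TPM in every tumor. The members' mean levels over 12 tumors ran from 2.63 TPM for E2f1 to 156 TPM for Pcna, with a median of 20.3 TPM against 17.4 TPM for the genes tested. Tumors of 1 group varied in a member by a median SD of 0.51 on the log2 scale, and in a tested gene by 0.48. Lig1, Tk1 and Rrm1 were the steadiest members within groups, with SDs of 0.18, 0.25 and 0.25, and Tyms, Gins1 and Gmnn varied most, with SDs of 1.08, 1.02 and 0.96.

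Averaged over the 46 members, log2(TPM + 1) was 4.05, 4.13 and 3.97 in the IgG1 tumors, 4.21, 4.37 and 4.30 with anti-PD-1, 4.12, 3.56 and 3.82 with DOX/IgG1, and 4.51, 4.51 and 4.05 with DOX/anti-PD-1. Each anti-PD-1 tumor lay above each IgG1 tumor, whereas DOX/IgG1 replicates 2 and 3 were the lowest of the 12 and DOX/anti-PD-1 replicates 1 and 2 the highest. Group means were 4.05 ± 0.08, 4.29 ± 0.08, 3.83 ± 0.28 and 4.36 ± 0.27 (SD, n = 3) in that order. Summed over members, TPM ran from 884 in DOX/IgG1 replicate 2 to 1544 in DOX/anti-PD-1 replicate 1. In a bulk tumor a smaller number of cycling cells and less replication mRNA per cell cannot be told apart.

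**Figure D1:**
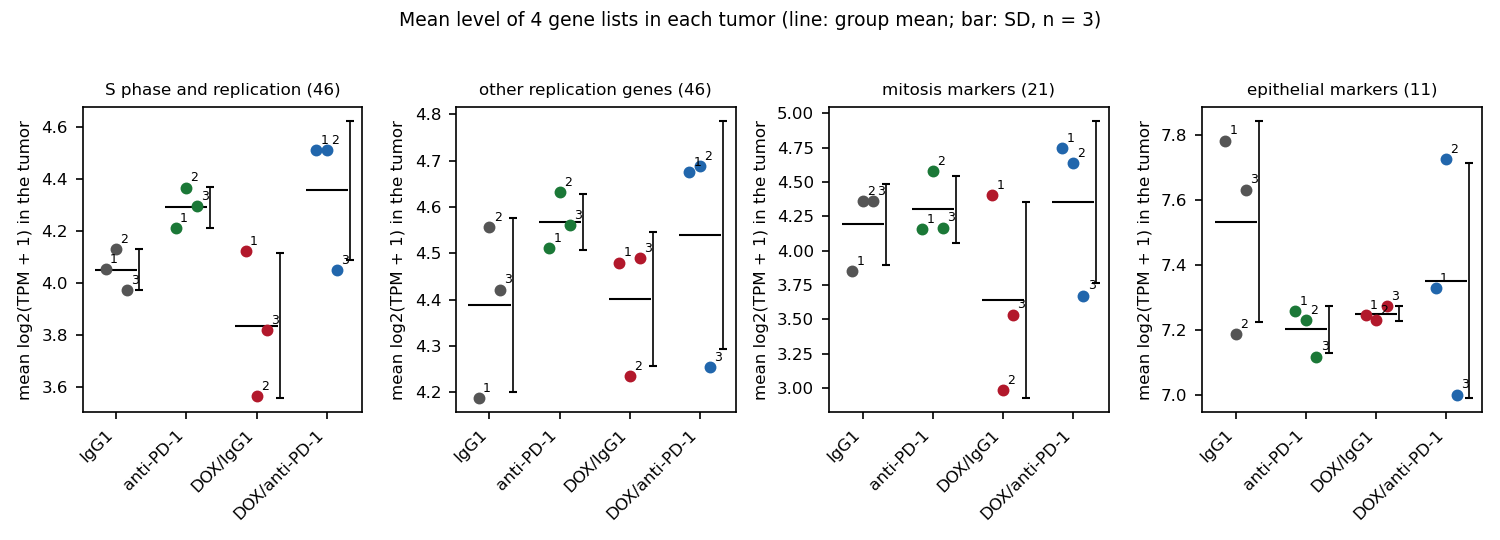
Mean log2(TPM + 1) of 4 gene lists in each of 12 tumors, by group (points: tumors with their replicate number; line: group mean; bar: SD, n = 3). The member mean lies lowest in DOX/IgG1 replicate 2 at 3.56 and highest in DOX/anti-PD-1 replicates 1 and 2 at 4.51.

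Gene by gene, the DOX/anti-PD-1 group had the highest mean of the 4 groups for 22 members and the anti-PD-1 group for 18. The lowest group mean was in DOX/IgG1 for 29 members. DOX/IgG1 replicate 2 held 15 members at their lowest level and DOX/anti-PD-1 replicate 1 held 15 at their highest. Against their own average over 12 tumors, 40 members were higher in DOX/anti-PD-1 replicate 2 and only 5 in DOX/IgG1 replicate 2. The tumors of 1 group also differed, since 28 members were above average in DOX/IgG1 replicate 1 and 19 in DOX/anti-PD-1 replicate 3.

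**Figure D2:**
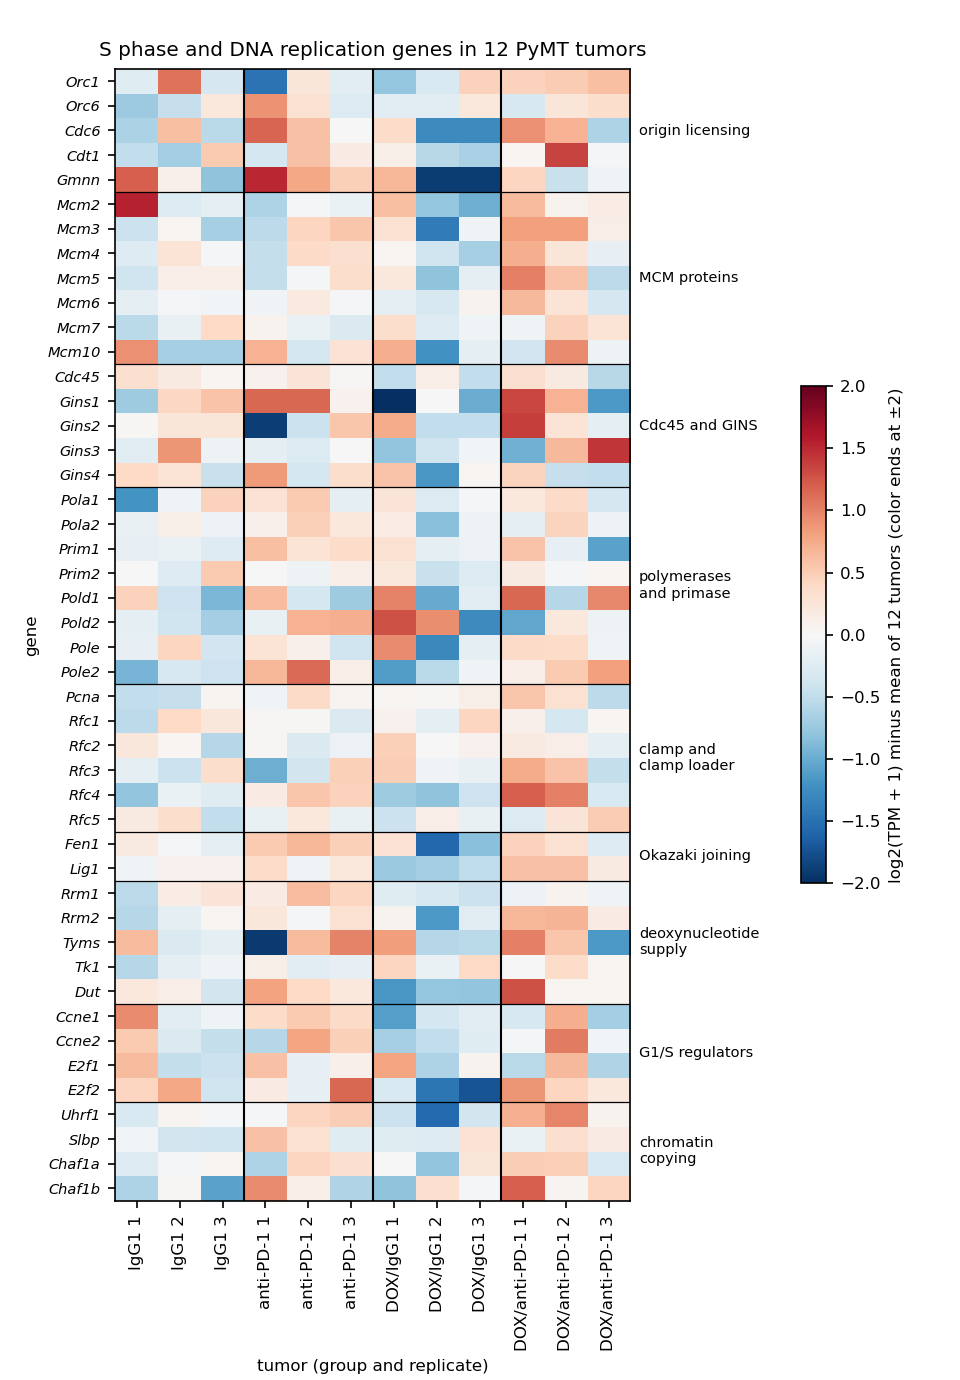
Log2(TPM + 1) of 46 members in 12 tumors, each minus the member's mean over the tumors, with members ordered by role and colors ending at -2 and 2. DOX/IgG1 replicate 2 has 5 members above their own average and DOX/anti-PD-1 replicate 2 has 40.

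Pairs of members had a higher median correlation than pairs of genes at large. Over 1035 pairs of members the median Pearson correlation across the 12 tumors was 0.21, and 73.3% of pairs were above 0, against a median of 0.05 and 55.2% for pairs of all tested genes. With group means subtracted the members' median was 0.15, with 62.5% above 0, against 0.05 and 54.3%. The median of 0.21 had a jackknife standard error over tumors of 0.093, and pairs above 0.5 made up 18.0% of member pairs within groups against 12.7% of all pairs. These are descriptions over tumors that share groups. The closest pairs within groups were Mcm10 with E2f1 at 0.98, Mcm6 with Rfc4 at 0.93, Uhrf1 with Chaf1a at 0.91 and Mcm3 with Uhrf1 at 0.90. Subunits of 1 complex were not always alike. Among Cdc45 and the GINS subunits, which sit together in the helicase, the median was -0.24, and among the 7 MCM genes it was 0.17.

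The promoters of the members were read for 2 kinds of short word. RefSeq windows (build GRCm38.p6, from 250 bases before a start site to 50 after it) were held for 37 of the 46 members, in 44 windows. The start site of a window can differ from the GENCODE gene start, as for windows of E2f2, Lig1, Uhrf1, Dut and Cdc6. E2F words, which are the 8-base core sequences TTTCGCGC, TTTGGCGC, TTCCCGCC and TTCGCGCC on either strand, and which overlap each other in some promoters, were in 18 of 37 member genes (48.6%), against 1027 of 27025 genes (3.80%) in the whole table. The 18 were Cdt1, Chaf1a, E2f2, Fen1, Lig1, Mcm3, Mcm5, Mcm6, Mcm7, Orc1, Pola1, Pold1, Pole2, Prim1, Rfc3, Rfc4, Rrm1 and Uhrf1. CCAAT, the core of the box bound by NF-Y, was found on either strand in 22 of 37 member genes (59.5%) and in 11096 of 27025 genes (41.1%). The mitosis markers had E2F words in 1 of 17 genes (5.88%) and CCAAT in 14 of 17 (82.4%). Other replication genes had E2F words in 10 of 38 (26.3%) and CCAAT in 19 of 38. Windows were held for 17 of 21 mitosis markers and 38 of 46 other replication genes, but for only 19 of 26 G1/S control genes, too small a part of that list, so its share is void. A match describes letters in a window, not a bound site.

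The windows that hold E2F words are shown for 5 members on which the anti-PD-1 comparisons turn, picked out after their values were seen. Mcm3 and Fen1, higher with anti-PD-1 at unadjusted p below 0.05, hold such words too but are not shown. Dut, Rrm2 and Cdc6, which were also higher with anti-PD-1 at unadjusted p below 0.05, hold none of these letters in their windows. The Dut and Cdc6 windows begin after the GENCODE gene start, so the bases before that start were not read. Capitals mark the E2F words. E2f2 is read from chr4:136172024-136172323 on the plus strand, Lig1 from chr7:13278576-13278875 on the plus strand, Pole2 from chr12:69228141-69228440 on the minus strand and Rfc4 from chr16:23127681-23127980 on the minus strand. Uhrf1 has a pair of windows, the first from chr17:56303087-56303386 on the plus strand and the other from chr17:56304063-56304362 on the plus strand. Positions are counted from the start site of the window, not from the GENCODE gene start. The word begins 40 bases after that site in E2f2 and 11 bases after it in both Pole2 and Rfc4, where it is on the reverse strand. Lig1 has 2 words, at 27 and 42.
E2f2: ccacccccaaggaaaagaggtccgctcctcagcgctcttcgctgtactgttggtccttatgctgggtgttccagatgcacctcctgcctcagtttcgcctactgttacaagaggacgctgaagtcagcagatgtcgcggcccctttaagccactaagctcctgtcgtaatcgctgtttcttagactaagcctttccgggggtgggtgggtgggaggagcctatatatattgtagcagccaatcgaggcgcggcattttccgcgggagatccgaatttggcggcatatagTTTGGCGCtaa
Lig1: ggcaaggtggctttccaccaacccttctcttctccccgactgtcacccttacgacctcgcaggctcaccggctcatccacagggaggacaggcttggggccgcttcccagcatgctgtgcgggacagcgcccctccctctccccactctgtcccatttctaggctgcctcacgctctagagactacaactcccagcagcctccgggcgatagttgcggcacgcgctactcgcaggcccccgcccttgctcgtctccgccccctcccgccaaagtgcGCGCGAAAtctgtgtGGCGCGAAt
Pole2: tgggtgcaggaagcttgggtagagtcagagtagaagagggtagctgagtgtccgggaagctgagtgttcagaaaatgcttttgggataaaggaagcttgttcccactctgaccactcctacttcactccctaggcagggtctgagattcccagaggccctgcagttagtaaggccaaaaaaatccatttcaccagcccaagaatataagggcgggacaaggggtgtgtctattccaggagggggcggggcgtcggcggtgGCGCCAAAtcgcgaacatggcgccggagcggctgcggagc
Rfc4: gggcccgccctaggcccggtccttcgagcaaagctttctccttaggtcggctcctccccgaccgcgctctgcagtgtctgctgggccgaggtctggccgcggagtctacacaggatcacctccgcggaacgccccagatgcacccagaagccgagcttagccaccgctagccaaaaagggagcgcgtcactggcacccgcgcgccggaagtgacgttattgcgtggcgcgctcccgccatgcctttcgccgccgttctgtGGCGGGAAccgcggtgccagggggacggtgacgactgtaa
Uhrf1: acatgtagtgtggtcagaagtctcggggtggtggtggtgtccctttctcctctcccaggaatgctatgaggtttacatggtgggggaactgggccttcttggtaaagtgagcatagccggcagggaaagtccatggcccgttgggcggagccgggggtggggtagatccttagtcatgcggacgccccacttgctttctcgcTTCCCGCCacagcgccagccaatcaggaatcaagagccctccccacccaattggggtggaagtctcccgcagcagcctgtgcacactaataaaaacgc
Uhrf1: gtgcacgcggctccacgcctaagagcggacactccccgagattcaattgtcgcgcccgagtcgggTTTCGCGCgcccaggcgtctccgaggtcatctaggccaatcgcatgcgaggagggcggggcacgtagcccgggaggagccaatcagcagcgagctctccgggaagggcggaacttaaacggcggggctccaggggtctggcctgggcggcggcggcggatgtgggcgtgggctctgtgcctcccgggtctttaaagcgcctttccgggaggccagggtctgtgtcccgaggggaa

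**Figure D3:**
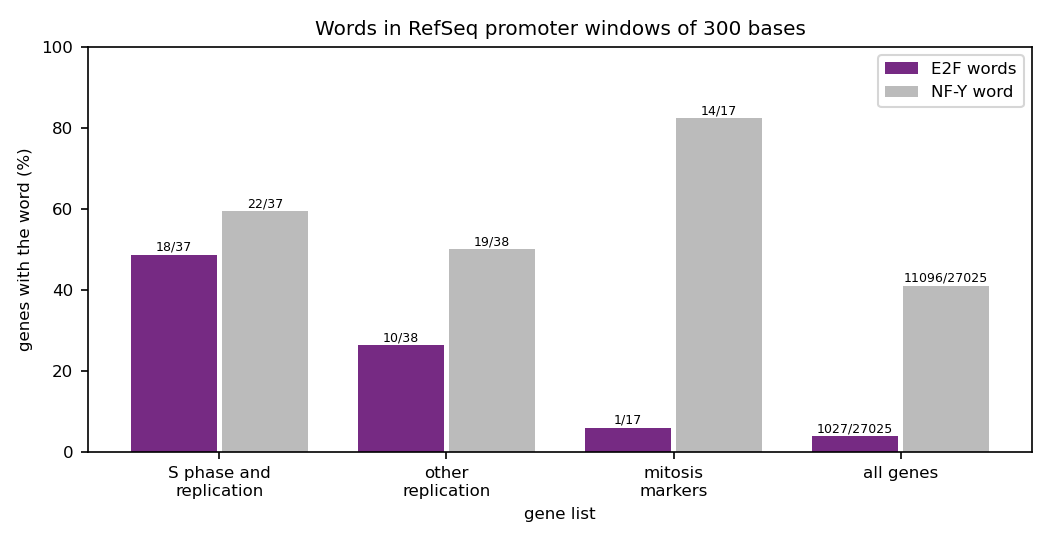
Percent of genes with an E2F word or the NF-Y word in a RefSeq promoter window of 300 bases, for 4 gene lists, with the counts printed on the bars. E2F words are in 18 of 37 members and 1 of 17 mitosis markers, and the NF-Y word is in 14 of 17 mitosis markers. Windows on chromosome 18 were left out.

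Origin licensing begins with the origin recognition complex. Orc6, its smallest subunit and the most abundant member of this role, measured 15.3, 18.8 and 30.3 TPM in the IgG1 tumors, 49.4, 32.6 and 21.4 with anti-PD-1, 22.3, 22.3 and 30.5 with DOX/IgG1 and 20.7, 31.1 and 33.7 with DOX/anti-PD-1. Its groups overlapped throughout. Orc1 (ENSMUSG00000028587, chr4:108579423-108614833, plus strand), the subunit that binds and splits ATP, measured 2.59, 8.09 and 2.39 TPM in the IgG1 tumors, 0.530, 4.02 and 2.70 with anti-PD-1, 1.48, 2.44 and 4.84 with DOX/IgG1 and 4.84, 5.06 and 5.46 with DOX/anti-PD-1. The 3 DOX/anti-PD-1 tumors were close together and above each anti-PD-1 tumor. Gmnn (ENSMUSG00000006715, chr13:24751845-24761923, minus strand), geminin, which holds Cdt1 inactive after origins fire, was 7.57, 2.99 and 1.13 TPM in the IgG1 tumors, 9.66, 5.36 and 4.18 with anti-PD-1, 4.89, 0 and 0 with DOX/IgG1 and 4.04, 1.73 and 2.51 with DOX/anti-PD-1. It was listed at 0 in DOX/IgG1 replicates 2 and 3, which can be a failed estimate as well as an absence. Cdc6, which loads MCM rings with Cdt1, measured 2.57, 7.43 and 2.83 TPM in the IgG1 tumors, 11.4, 7.29 and 4.59 with anti-PD-1, 6.13, 1.30 and 1.29 with DOX/IgG1 and 9.39, 7.94 and 2.62 with DOX/anti-PD-1, lowest in the same pair of DOX/IgG1 tumors.

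Mcm2 to Mcm7 form the ring of the replicative helicase, and Mcm10 helps to start it. Mcm7, a subunit of that ring and the most abundant of the 7 genes, stood at 87.9, 116 and 171 TPM in the IgG1 tumors, 135, 117 and 105 with anti-PD-1, 164, 107 and 122 with DOX/IgG1 and 121, 177 and 155 with DOX/anti-PD-1, with every group overlapping the others. Mcm2 (ENSMUSG00000002870, chr6:88883474-88898780, minus strand) measured 91.1, 25.2 and 26.8 TPM in the IgG1 tumors, 19.7, 29.9 and 27.7 with anti-PD-1, 47.00, 17.4 and 15.01 with DOX/IgG1 and 47.7, 32.2 and 33.9 with DOX/anti-PD-1. IgG1 replicate 1 was far above the rest, and the DOX/anti-PD-1 tumors were each above the anti-PD-1 tumors. Mcm3 measured 14.3, 20.1 and 11.9 TPM in the IgG1 tumors, 13.3, 26.7 and 29.1 with anti-PD-1, 24.3, 6.80 and 18.7 with DOX/IgG1 and 35.3, 35.4 and 21.6 with DOX/anti-PD-1, lowest in DOX/IgG1 replicate 2.

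Gins2 belongs to the 4-subunit GINS complex, which completes the helicase with Cdc45. It was the most abundant of its role, at 32.2, 37.6 and 37.5 TPM in the IgG1 tumors, 7.82, 23.2 and 46.7 with anti-PD-1, 53.4, 22.1 and 22.2 with DOX/IgG1 and 83.8, 38.5 and 27.8 with DOX/anti-PD-1, and DOX/anti-PD-1 replicate 1 was the highest tumor. Gins1, another GINS subunit, was listed at 0 in DOX/IgG1 replicate 1. Elsewhere it measured 2.52, 6.71 and 7.57 TPM with IgG1, 11.8, 11.8 and 5.13 with anti-PD-1, 4.76 and 1.92 in DOX/IgG1 replicates 2 and 3, and 13.5, 8.36 and 1.61 with DOX/anti-PD-1. Both anti-PD-1 groups held tumors above 11 TPM, and no other group did.

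Among the polymerases, Pole2 (ENSMUSG00000020974, chr12:69201773-69228195, minus strand), the second subunit of the leading strand polymerase epsilon, measured 3.16, 5.39 and 4.96 TPM in the IgG1 tumors, 11.6, 16.4 and 7.70 with anti-PD-1, 2.68, 4.47 and 6.60 with DOX/IgG1 and 7.75, 10.4 and 13.1 with DOX/anti-PD-1. Each of the 6 tumors that received anti-PD-1 was above each of the 6 that received IgG1. Its group means were 4.50 ± 1.18, 11.9 ± 4.35, 4.58 ± 1.96 and 10.4 ± 2.66 TPM (SD, n = 3). Pola1, the catalytic subunit of polymerase alpha, was the most abundant of the role at 8.98, 20.4 and 30.3 TPM in the IgG1 tumors, 26.7, 31.7 and 18.9 with anti-PD-1, 26.2, 17.8 and 21.5 with DOX/IgG1 and 25.4, 28.9 and 16.99 with DOX/anti-PD-1, with overlap between all groups. Pold2 (ENSMUSG00000020471, chr11:5872180-5878292, minus strand), an accessory subunit of the lagging strand polymerase delta, measured 12.9, 11.05 and 8.91 TPM in the IgG1 tumors, 13.3, 24.7 and 25.4 with anti-PD-1, 37.5, 29.3 and 5.56 with DOX/IgG1 and 6.69, 17.3 and 13.7 with DOX/anti-PD-1. The anti-PD-1 tumors were above the IgG1 tumors, and DOX/IgG1 spanned both the highest and the lowest values. Prim1, the catalytic primase subunit, measured 13.7, 14.1 and 12.7 TPM in the IgG1 tumors, 23.9, 18.8 and 20.3 with anti-PD-1, 19.3, 13.3 and 14.2 with DOX/IgG1 and 23.3, 13.7 and 6.84 with DOX/anti-PD-1, again with the anti-PD-1 tumors above the IgG1 tumors.

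Pcna, the sliding clamp that tethers the polymerases, was the most abundant member of all, at 108, 111 and 159 TPM in the IgG1 tumors, 145, 199 and 157 with anti-PD-1, 157, 155 and 165 with DOX/IgG1 and 223, 188 and 105 with DOX/anti-PD-1. Its groups overlapped. Rfc4 (ENSMUSG00000022881, chr16:23113943-23127737, minus strand), a subunit of the loader that opens the clamp, measured 12.96, 21.04 and 19.4 TPM in the IgG1 tumors, 26.2, 34.3 and 32.1 with anti-PD-1, 13.8, 12.8 and 17.2 with DOX/IgG1 and 54.5, 47.8 and 18.6 with DOX/anti-PD-1. Each anti-PD-1 tumor was above each IgG1 tumor, and each DOX/anti-PD-1 tumor above each DOX/IgG1 tumor, although DOX/anti-PD-1 replicate 3 was only just so. The group means were 17.8 ± 4.26, 30.9 ± 4.21, 14.6 ± 2.30 and 40.3 ± 19.1 TPM (SD, n = 3).

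Okazaki fragments are trimmed by the nuclease Fen1 and sealed by the ligase Lig1. Lig1 (ENSMUSG00000056394, chr7:13277283-13311433, plus strand) measured 24.6, 27.4 and 27.3 TPM in the IgG1 tumors, 33.4, 24.1 and 29.8 with anti-PD-1, 15.04, 15.7 and 17.8 with DOX/IgG1 and 39.3, 39.1 and 29.4 with DOX/anti-PD-1. The 3 DOX/IgG1 tumors were the lowest of the 12, below every IgG1 and every DOX/anti-PD-1 tumor, while the IgG1 and anti-PD-1 tumors overlapped. Its group means were 26.4 ± 1.59, 29.1 ± 4.66, 16.2 ± 1.46 and 35.9 ± 5.69 TPM (SD, n = 3). Fen1 (ENSMUSG00000024742, chr19:10199132-10204169, minus strand) measured 18.9, 16.04 and 14.3 TPM in the IgG1 tumors, 24.2, 26.9 and 23.4 with anti-PD-1, 20.4, 4.94 and 8.85 with DOX/IgG1 and 23.1, 20.7 and 13.7 with DOX/anti-PD-1. The anti-PD-1 tumors were above both the IgG1 and the DOX/anti-PD-1 tumors.

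Rrm1 and Rrm2 are the subunits of ribonucleotide reductase, which makes deoxynucleotides. Rrm1 (ENSMUSG00000030978, chr7:102441695-102469771, plus strand) measured 32.7, 52.3 and 57.03 TPM in the IgG1 tumors, 53.1, 73.5 and 64.02 with anti-PD-1, 40.01, 37.6 and 34.97 with DOX/IgG1 and 43.5, 49.8 and 45.02 with DOX/anti-PD-1. Its DOX/anti-PD-1 tumors were above the DOX/IgG1 tumors and below the anti-PD-1 tumors. Rrm2 measured 19.98, 26.02 and 30.8 TPM in the IgG1 tumors, 35.3, 29.3 and 37.2 with anti-PD-1, 31.6, 13.1 and 25.8 with DOX/IgG1 and 48.4, 48.7 and 33.9 with DOX/anti-PD-1, with the DOX/anti-PD-1 tumors above the DOX/IgG1 tumors. Dut (ENSMUSG00000027203, chr2:125247190-125258608, plus strand), which destroys dUTP and so keeps uracil out of DNA, measured 19.6, 18.5 and 12.8 TPM in the IgG1 tumors, 29.8, 22.3 and 19.5 with anti-PD-1, 6.90, 9.35 and 9.24 with DOX/IgG1 and 41.7, 17.2 and 17.2 with DOX/anti-PD-1. The 3 DOX/IgG1 tumors were the lowest of all, below each IgG1 and each DOX/anti-PD-1 tumor. The Dut group means were 16.9 ± 3.65, 23.9 ± 5.35, 8.50 ± 1.38 and 25.4 ± 14.2 TPM (SD, n = 3), and the wide last spread came from DOX/anti-PD-1 replicate 1.

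The cyclins E1 and E2 activate Cdk2 at the entry to S phase. Ccne2, the most abundant of the G1/S regulators, measured 20.6, 11.4 and 9.81 TPM in the IgG1 tumors, 9.17, 24.96 and 19.99 with anti-PD-1, 8.45, 9.66 and 11.7 with DOX/IgG1 and 13.7, 29.8 and 13.5 with DOX/anti-PD-1, and the DOX/anti-PD-1 tumors were above the DOX/IgG1 tumors. Ccne1 (ENSMUSG00000002068, chr7:38097984-38107534, minus strand) measured 12.6, 5.04 and 5.64 TPM in the IgG1 tumors, 8.07, 9.03 and 8.19 with anti-PD-1, 2.26, 4.52 and 5.02 with DOX/IgG1 and 4.61, 10.6 and 3.38 with DOX/anti-PD-1, each DOX/IgG1 tumor being below each IgG1 tumor by a small margin. E2f2 (ENSMUSG00000018983, chr4:136172394-136196057, plus strand), an activating E2F factor, measured 10.9, 14.1 and 5.70 TPM in the IgG1 tumors, 8.90, 6.84 and 18.5 with anti-PD-1, 6.17, 2.24 and 1.67 with DOX/IgG1 and 15.3, 10.9 and 9.22 with DOX/anti-PD-1. The 3 DOX/IgG1 tumors lay below every DOX/anti-PD-1 tumor, and DOX/IgG1 replicate 1 lay within the range of the IgG1 tumors. The E2f2 group means were 10.2 ± 4.24, 11.4 ± 6.20, 3.36 ± 2.45 and 11.8 ± 3.12 TPM (SD, n = 3).

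Slbp, which binds the stem loop of histone mRNA, was the most abundant gene for the copying of chromatin, at 45.2, 36.2 and 35.5 TPM in the IgG1 tumors, 71.1, 57.96 and 39.7 with anti-PD-1, 39.6, 38.9 and 57.8 with DOX/IgG1 and 42.9, 58.9 and 52.8 with DOX/anti-PD-1, with overlap between all groups. Uhrf1 (ENSMUSG00000001228, chr17:56303321-56323486, plus strand), which brings the maintenance DNA methyltransferase to newly copied DNA, measured 16.97, 21.97 and 20.5 TPM in the IgG1 tumors, 20.7, 28.7 and 30.05 with anti-PD-1, 15.5, 6.55 and 16.1 with DOX/IgG1 and 35.1, 42.8 and 22.1 with DOX/anti-PD-1. Every DOX/IgG1 tumor was below every IgG1 and every DOX/anti-PD-1 tumor. Its group means were 19.8 ± 2.56, 26.5 ± 5.08, 12.7 ± 5.35 and 33.3 ± 10.4 TPM (SD, n = 3).

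**Figure D4:**
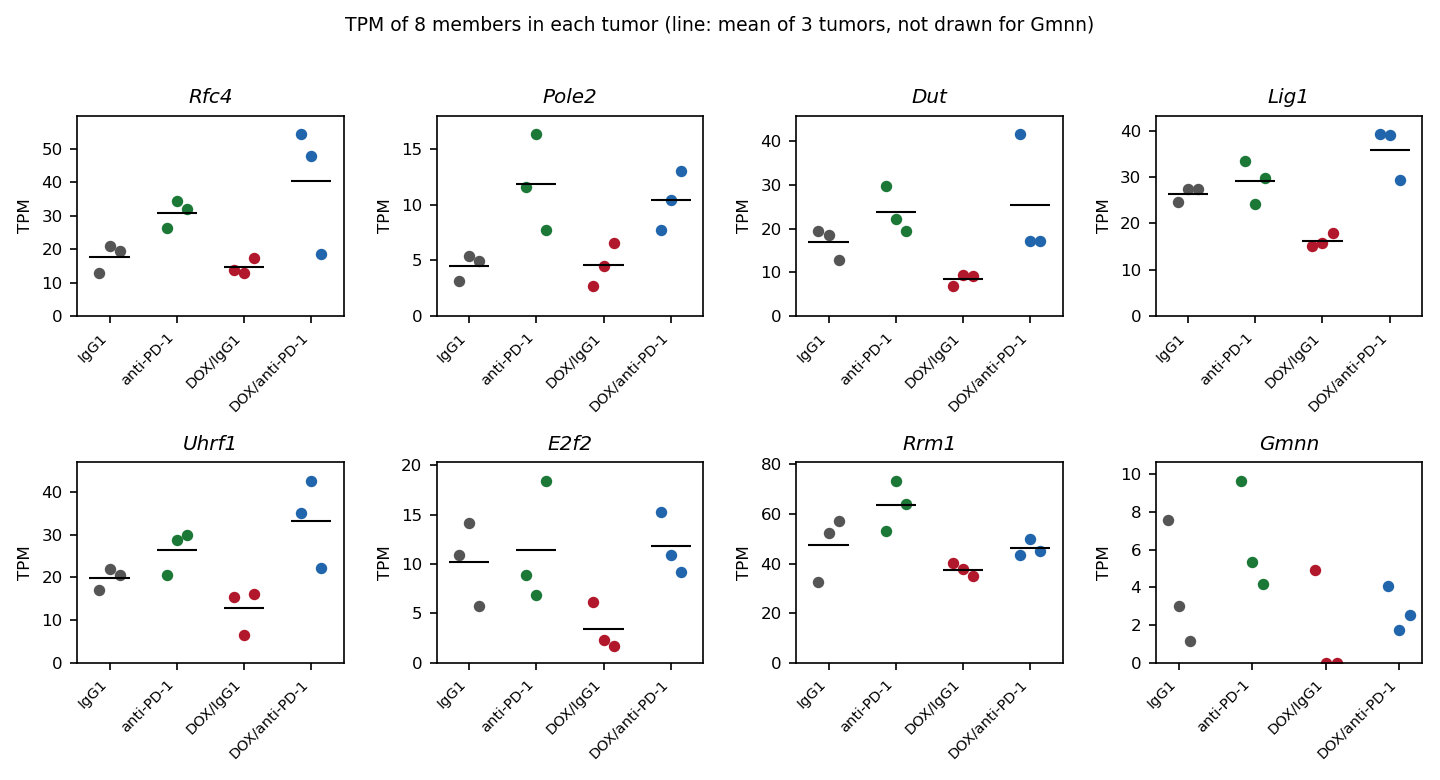
TPM of 8 members in each of 12 tumors, by group (points: tumors; line: mean of 3 tumors, not drawn for Gmnn, which is listed at 0 in 2 tumors). Pole2 and Rfc4 are higher in each anti-PD-1 tumor than in each IgG1 tumor, and Lig1, Dut and Uhrf1 lie lowest in DOX/IgG1.

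The first comparison asks what doxorubicin did under the control antibody. Most replication genes were lower in the DOX/IgG1 tumors than in the IgG1 tumors: 32 of 46 members were lower and 14 higher, with a median log2 fold change of -0.17, whereas all tested genes had a median of 0.12 and 60.6% were higher. The lower values were found at the helicase, where all 5 genes of Cdc45 and GINS were lower (median -0.46) and 6 of 7 MCM genes (median -0.09), in Okazaki fragment joining (both genes, median -0.68), in origin licensing (4 of 5, median -0.38), and among the G1/S regulators (3 of 4, median -0.58). The clamp and its loader had 4 of 6 genes higher (median 0.13), and the 5 genes of deoxynucleotide supply had 4 lower (median -0.18). Size factors, which set all tumors to a common scale by the median of gene ratios, shifted the median of all genes by -0.11 here. On that scale 34 of 46 members were lower (median -0.28), and 2 role medians turned from positive to negative, the polymerases and primase from 0.08 to -0.02 and the copying of chromatin from 0.05 to -0.06.

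In this comparison limma called 0 of 46 members at adjusted p below 0.1 with an absolute log2 fold change above 1, and it called 5 of 13874 genes (0.036%). At unadjusted p below 0.05 there were 0 members higher and 3 lower, against 5.03% and 2.7% of all genes. The 3 were E2f2, Dut and Lig1. In 0 members were the 3 DOX/IgG1 tumors all above the IgG1 tumors and in 4 all below, against 9.31% and 4.64% of genes. The 4 were Dut, Lig1, Ccne1 and Uhrf1. Lig1 and E2f2 were picked out here after their values were seen. E2f2 had a log2 fold change of -1.43 (SE 0.52) with a limma p of 0.0235, adjusted to 0.572, the smallest adjusted p of the members. Dut had -0.91 (SE 0.34) with an adjusted p of 0.577, and Lig1 -0.68 (SE 0.26) with an adjusted p of 0.597. Ccne1 had -0.78 (SE 0.48), which was -0.41 without IgG1 replicate 1 and -0.50 without DOX/IgG1 replicate 1. Uhrf1 had -0.69 (SE 0.39), which was -0.30 without DOX/IgG1 replicate 2. The two-sided exact permutation test cannot go below 0.1 with 3 tumors against 3, and gave 0.1 for Dut, Lig1, Ccne1 and Uhrf1 and 0.2 for E2f2.

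Single tumors moved this comparison. Without DOX/IgG1 replicate 1, 35 of 46 members were lower with a median of -0.37, and 5 were lower and 0 higher at unadjusted p below 0.05, against 542 and 1262 of 13874 genes, while limma called 0 members and 122 genes (0.879%). The role medians were then -0.39 for origin licensing, -0.45 for the MCM genes (all 7 lower), -0.58 for Cdc45 and GINS, -0.15 for the polymerases and primase, 0.04 for the clamp and loader (3 of 6 higher), -0.90 for Okazaki fragment joining, -0.43 for deoxynucleotide supply, -0.40 for the G1/S regulators and 0.05 for the copying of chromatin. Without DOX/IgG1 replicate 2 the members' median was 0.05. Without IgG1 replicate 2 there were 0 lower members at unadjusted p below 0.05, and without DOX/IgG1 replicate 3 there was 1 higher. Epithelial markers were on average lower in the DOX/IgG1 tumors. Epcam was below every IgG1 tumor in each of them, with a log2 fold change of -0.87 (SE 0.23) and an adjusted p of 0.469 from limma. The 11 markers summed to 4143, 2929 and 3613 TPM with IgG1 and 2538, 3493 and 3974 with DOX/IgG1, and the mean log2 value of the list differed by -0.28. The member mean differed by -0.22 between these groups, the median over members in each tumor by -0.01, and the member mean by 0.07 once the epithelial mean of each tumor was subtracted. The part of epithelial content in the lower values was not tested beyond that subtraction.

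Salivary gland mRNA moved with the same group. Bpifa2, a salivary secretory protein, and Smr3a were among the 5 called genes, each with an adjusted p of 0.0334, and the 4 salivary markers that were listed, of 5, summed to 39.01, 55.2 and 80.1 TPM in the DOX/IgG1 tumors and to no more than 15.2 TPM in the other 9, where Bpifa2 was listed at 0. T cell and NK cell markers were high in DOX/IgG1 replicates 2 and 3, the tumors low in the members. The 5 T cell markers listed, of 6, with Cd3e the most abundant, summed to 20.3, 11.5 and 5.98 TPM with IgG1, 2.68, 13.96 and 8.81 with anti-PD-1, 5.76, 43.97 and 38.4 with DOX/IgG1 and 12.99, 15.1 and 32.8 with DOX/anti-PD-1. Their part in the members' values was not tested.

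The second comparison asks what doxorubicin did where PD-1 was blocked. Adding doxorubicin to anti-PD-1 went with 27 of 46 members higher and 19 lower, with a median of 0.15 against 0.11 for all genes. The MCM genes had 6 of 7 higher (median 0.33) and the clamp and loader 5 of 6 (median 0.18). Origin licensing had 3 of 5 lower (median -0.22) and the polymerases and primase 5 of 8 (median -0.13). Under size factors all genes shifted by -0.12 and the members' median was 0.03, with 24 higher and 22 lower. Without 1 tumor the members' median was 0.009 (DOX/anti-PD-1 replicate 1), 0.07 (DOX/anti-PD-1 replicate 2), 0.08 (anti-PD-1 replicate 1) or 0.27 (DOX/anti-PD-1 replicate 3). Marker lists of other cell types differed as well. Their list means differed by 1.44 for adipocyte, 0.77 for T cell, 0.66 for fibroblast, 0.26 for endothelial and 0.15 for epithelial markers, and by -0.30 for salivary gland markers. Their part was not tested.

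For that pair limma called 0 members and 0 of 13736 genes (0%). At unadjusted p below 0.05 there were 0 members higher and 0 lower, against 6.3% and 2.33% of genes, and the groups did not overlap for 2 members higher and 3 lower, against 11.1% and 3.84%. Orc1 and Mcm2 were the higher pair, with log2 fold changes of 1.00 (SE 0.50) and 0.54 (SE 0.28). Orc1 had 0.50 without anti-PD-1 replicate 1. Of the lower 3, Gmnn had -0.95 (SE 0.44) with an adjusted p of 0.586, Rrm1 had -0.44 (SE 0.22) and Fen1 -0.39 (SE 0.28), which was -0.18 without DOX/anti-PD-1 replicate 3. The exact permutation p was 0.1, the smallest possible, for each of these 5. Leaving out 1 tumor gave up to 3 higher members at unadjusted p below 0.05, without DOX/anti-PD-1 replicate 3, and 2 lower without anti-PD-1 replicate 1, DOX/anti-PD-1 replicate 1 or DOX/anti-PD-1 replicate 2. There was 1 higher member without anti-PD-1 replicate 2 or 3, or without DOX/anti-PD-1 replicate 1 or 2. The shares of all genes with these tumors left out are not given, so these counts cannot be set against them.

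Taken as the mean of both doxorubicin comparisons over 12 tumors, 22 members were higher and 24 lower, with a median of -0.003 against 0.12 for all genes, of which 63.3% were higher. limma called 0 of 46 members and 13 of 14735 genes (0.0882%). Of the members 0 were higher and 1 lower at unadjusted p below 0.05, against 8.69% and 3.19% of genes. The 1 was Gmnn, with -1.08 (SE 0.49), a limma p of 0.0450 adjusted to 0.405, and an exact permutation p of 0.075, where labels were exchanged within each antibody and the smallest possible p was 0.005. Its values at 0 make that size depend on the number added before the log, and log2(TPM + 0.1) gave -2.12. Rrm1 had -0.37 (SE 0.17) with an exact permutation p of 0.045, and Tk1, which salvages thymidine, 0.36 (SE 0.17) with an exact permutation p of 0.04. Rrm1 and Tk1 were picked out after their values were seen.

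Scale and single tumors matter for that mean. Under size factors, which shifted all genes by -0.11, there were 36 members lower and 10 higher (median -0.12), and the medians of origin licensing (0.02 to -0.10), the MCM genes (0.06 to -0.06), the clamp and loader (0.11 to -0.01), deoxynucleotide supply (0.05 to -0.07) and the copying of chromatin (0.05 to -0.07) turned negative. On that scale 4 members were lower at unadjusted p below 0.05, a count given without the share of all genes. Without DOX/IgG1 replicate 1, limma called Gmnn lower with an adjusted p of 0.0885, among 301 genes (2.04%). The DOX/IgG1 arm then held only the 2 tumors where Gmnn is listed at 0, so the size is not given and the call rests on what may be failed estimates. There were then 3 lower members at unadjusted p below 0.05, against 518 of 14735 genes, and 3 without DOX/anti-PD-1 replicate 1, 2 without IgG1 replicate 3, and 0 without DOX/IgG1 replicate 3 or DOX/anti-PD-1 replicate 3. There was 1 higher member without IgG1 replicate 3, anti-PD-1 replicate 1 or DOX/IgG1 replicate 2. The members' median of -0.003 lay between -0.07 without DOX/IgG1 replicate 1 and 0.05 without DOX/IgG1 replicate 2.

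The third comparison asks what PD-1 blockade did without doxorubicin. Replication genes were mostly higher: 34 of 46 members were higher in anti-PD-1 than in IgG1 tumors and 12 lower, with a median of 0.24, whereas all genes had a median of -0.03 and 47.2% were higher. Polymerases and primase had 7 of 8 genes higher (median 0.40), origin licensing 4 of 5 (median 0.64), deoxynucleotide supply 4 of 5 (median 0.41), and all 4 of the G1/S regulators (median 0.24) and of the genes for the copying of chromatin (median 0.44) were higher. The clamp and loader had 4 of 6 lower (median -0.03), and Cdc45 and GINS 3 of 5 (median -0.06). Size factors moved the median of all genes by 0.03, to 0.01, and put that of the members at 0.26. Markers of several other cell types were lower in the same tumors: 10 of 11 epithelial, 7 of 7 fibroblast, 7 of 8 adipocyte, 5 of 6 endothelial and 6 of 7 macrophage markers, with differences of the list means of -0.33, -0.43, -0.54, -0.39 and -0.26. The member mean differed by 0.24, and by 0.57 once the epithelial mean of each tumor was subtracted. The part of the other cell types was not tested.

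Between these 6 tumors limma called 0 members and 0 of 13692 genes (0%). At unadjusted p below 0.05 there were 4 members higher and 0 lower, against 1.75% and 2.85% of genes, and the groups did not overlap for 5 members higher and 0 lower, against 3.64% and 6.24%. The 4 were Pole2, Pold2, Rfc4 and Prim1, and Fen1 was the fifth without overlap. Pole2 had the largest difference, 1.20 (SE 0.38), with a limma p of 0.0101. Pold2 followed with 0.85 (SE 0.33), then Rfc4 with 0.78 (SE 0.28), Prim1 with 0.60 (SE 0.26) and Fen1 with 0.58 (SE 0.26). The adjusted p from limma was 0.996 for each of the 5, and the exact permutation p was 0.1. Prim1 and Fen1 were picked out after their values were seen. Without anti-PD-1 replicate 2 there were 0 higher members at unadjusted p below 0.05, and without anti-PD-1 replicate 3 there was 1 lower. With all 12 tumors in 1 fit, 1 member was higher at that limit (from 4).

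The fourth comparison asks what PD-1 blockade did after doxorubicin, and its median difference was the largest of the 4 pairs. Of the 46 members 40 were higher in DOX/anti-PD-1 than in DOX/IgG1 tumors and 6 lower, with a median of 0.43, whereas all genes had a median of -0.04 and 46.3% were higher. Every gene of origin licensing (5, median 0.82), the MCM group (7, median 0.61), Cdc45 and GINS (5, median 0.58), Okazaki fragment joining (2, median 0.98) and the copying of chromatin (4, median 0.56) was higher, also under size factors for the members as a whole (40 higher, median 0.45). The polymerases and primase had 6 of 8 higher (median 0.26), the clamp and loader 4 of 6 (median 0.12), deoxynucleotide supply 4 of 5 (median 0.29) and the G1/S regulators 3 of 4 (median 0.63). This comparison and the first share the DOX/IgG1 tumors, so a low value in those tumors enters both.

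Here too limma called 0 members and 0 of 13946 genes (0%). At unadjusted p below 0.05 there were 7 members higher and 0 lower, against 1.81% and 2.89% of genes, and the groups did not overlap for 9 members higher and 0 lower, against 4.27% and 5.95%. E2f2 had the largest difference among the 9, 1.67 (SE 0.50), with a limma p of 0.00887. Uhrf1 had 1.37 (SE 0.42), Dut 1.36 (SE 0.42) and Rfc4 1.28 (SE 0.42). Lig1 had 1.09 (SE 0.27) and the smallest limma p of the members, 0.00333. Pole2 had 1.07 (SE 0.44) and Rrm2 0.93 (SE 0.36), and Ccne2 and Rrm1 completed the 9, above the limit of the 7, with 0.79 (SE 0.40) and 0.29 (SE 0.23). The adjusted p from limma was 0.988 for the 7, and each of the 9 had an exact permutation p of 0.1. Lig1, Pole2, Rfc4, Rrm1, Rrm2 and Ccne2 were picked out here after their values were seen.

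Without DOX/IgG1 replicate 1, a setting looked at by role after the data were seen, 43 of 46 members were higher with a median of 0.55. At unadjusted p below 0.05 there were 11 higher and 0 lower, against 350 higher and 701 lower of 13946 genes. In that setting limma called 0 members and 4 genes. The role medians were then larger for origin licensing (1.06), the MCM genes (0.85), Cdc45 and GINS (0.60), the polymerases and primase (0.46), Okazaki fragment joining (1.21) and deoxynucleotide supply (0.70), and smaller for the clamp and loader (0.10), the G1/S regulators (0.44) and the copying of chromatin (0.45). Without DOX/anti-PD-1 replicate 2 there were 4 higher members at that limit, and without DOX/IgG1 replicate 3 there was 1 lower. Without DOX/anti-PD-1 replicate 3 the median was 0.64, and the lowest median with any 1 tumor left out was 0.32. The epithelial markers summed to 3434, 3331 and 2521 TPM with DOX/anti-PD-1 and to 2538, 3493 and 3974 with DOX/IgG1, while 6 of the 11 were higher with DOX/anti-PD-1 and the list mean differed by 0.10. The member mean differed by 0.52, and by 0.42 once the epithelial mean of each tumor was subtracted. Other lists were lower with DOX/anti-PD-1, by differences of the list mean of -2.78 for salivary gland, -0.56 for NK cell, -0.25 for T cell and -0.22 for macrophage markers, or higher, by 0.56 for neutrophil and 0.45 for adipocyte markers. Their part was not tested.

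**Figure D5:**
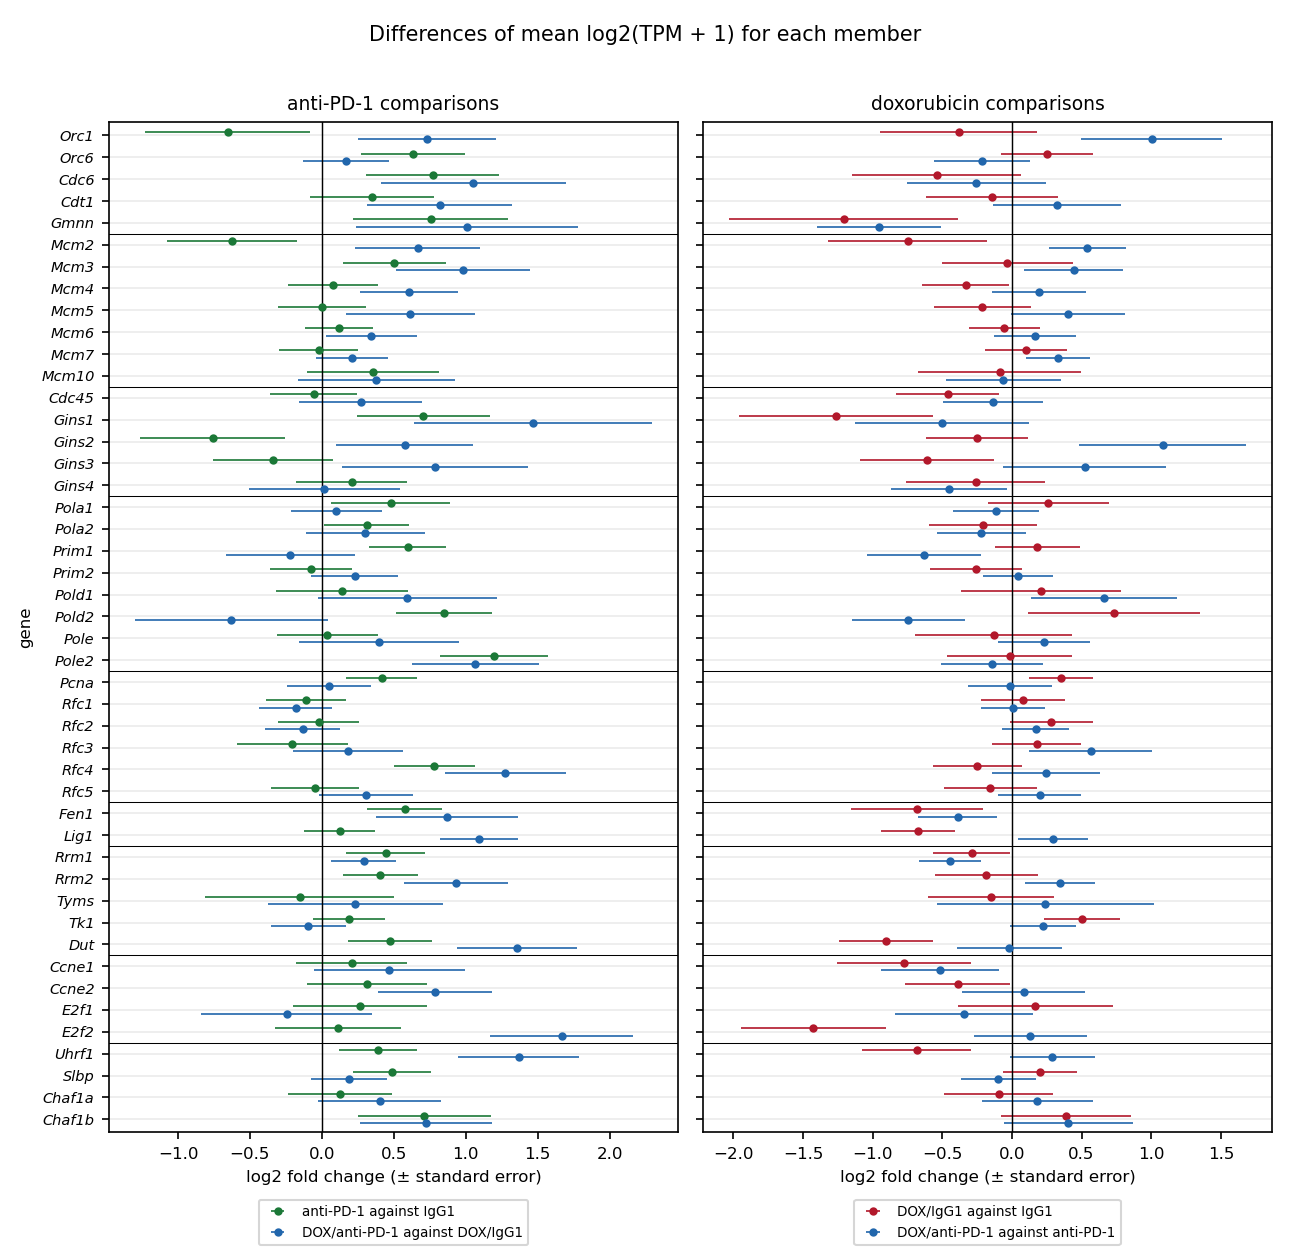
Log2 fold change of each member with its standard error, ordered by role, in the anti-PD-1 comparisons (left) and the doxorubicin comparisons (right). After doxorubicin 40 of 46 members were higher with anti-PD-1, and 34 of 46 without doxorubicin.

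Averaged over tumors with and without doxorubicin, a mean that was added after the data were seen, 42 members were higher with anti-PD-1 and 4 lower, with a median of 0.31 against -0.03 for all genes. limma called 0 members and 1 of 14735 genes (0.00679%), the salivary gene Bpifa2. There were 10 members higher and 0 lower at unadjusted p below 0.05, against 1.75% and 3.02% of genes. By role the 10 were Cdc6 in origin licensing, Mcm3 in the helicase ring, Pole2, Rfc4, Fen1 and Lig1 at the fork, Rrm2 and Dut in deoxynucleotide supply, E2f2, and Uhrf1. Under size factors 43 members were higher (median 0.34). Without DOX/anti-PD-1 replicate 1 the 10 became 6, a count given without the share of all genes. Other list means were lower with anti-PD-1, by -1.14 for salivary gland, -0.25 for T cell, -0.24 for macrophage and -0.12 for epithelial markers. Higher list means were those of neutrophil (0.39) and mitosis markers (0.41). Their part was not tested.

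Pole2 and Rfc4 had the smallest p-values of that mean. Pole2 had 1.13 (SE 0.28) with an adjusted p of 0.582 from limma, and Rfc4 1.03 (SE 0.26) with the same adjusted p. Both had an exact permutation p of 0.005, the smallest that 12 tumors exchanged within chemotherapy arms can give, since each tumor with anti-PD-1 was above each tumor of the matching control group. Dut had 0.92 (SE 0.25), Uhrf1 0.88 (SE 0.25) and Rrm2 0.67 (SE 0.22), each with an exact permutation p of 0.01. Rrm1, outside the 10, had 0.37 (SE 0.17) with the same exact permutation p, and Lig1 had 0.61 (SE 0.17) with one of 0.025. Cdc6, Mcm3, Fen1 and E2f2 had 0.91, 0.74, 0.72 and 0.89, with exact permutation p-values of 0.065, 0.05, 0.03 and 0.08. These genes were picked out after their values were seen, and none passed the adjusted limit.

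Whether doxorubicin's effect depended on the antibody is the question of the interaction. The interaction was positive for 32 members and negative for 14, with a median of 0.30 against -0.01 for all genes. All 11 epithelial markers had a positive interaction too, with a difference of 0.43 for the list mean. For other list means it was 0.99 (adipocyte), 0.77 (skeletal muscle), 0.63 (fibroblast), 0.60 (mitosis markers), 0.46 (endothelial), -0.83 (NK cell) and -3.29 (salivary gland). Their part was not tested. The interaction of the member mean was 0.28, that of the median over members in each tumor was 0.08, and the first turned to -0.15 once the epithelial mean of each tumor was subtracted. At an adjusted p below 0.1 limma called 0 members and 1 of 14735 genes (0.00679%), again Bpifa2. At unadjusted p below 0.05 there were 2 members with positive and 0 with negative values, against 2.26% and 2.45% of genes. Lig1 had an interaction of 0.97 (SE 0.34) with a limma p of 0.0123, and E2f2 one of 1.56 (SE 0.68) with a limma p of 0.0391, both adjusted to 0.993. Dut had 0.89 (SE 0.51), Uhrf1 0.98 (SE 0.50), Pole2 -0.13 (SE 0.57) and Rfc4 0.50 (SE 0.52). A larger effect of anti-PD-1 after doxorubicin than without it was therefore not shown for any member. The median of 0.30 became 0.12 without DOX/IgG1 replicate 2, 0.15 without DOX/anti-PD-1 replicate 1 and 0.51 without DOX/anti-PD-1 replicate 3. The count of 2 became 5 without DOX/IgG1 replicate 1, where 380 of 14735 genes were positive and 571 negative at that limit. It became 4 without DOX/anti-PD-1 replicate 3, and 1 without IgG1 replicate 1, anti-PD-1 replicate 1, DOX/IgG1 replicate 2 or DOX/anti-PD-1 replicate 2, and there was 1 negative member without DOX/IgG1 replicate 3 or DOX/anti-PD-1 replicate 1. The counts in the last sentence are given without the shares of all genes.

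Other genes of the pathway were read beside the members, in the same fits. limma called 0 of the 46 other replication genes, 0 of the 26 G1/S control genes and 0 of the 21 mitosis markers in each of the 7 comparisons with all tumors. In DOX/IgG1 against IgG1 20 of 21 mitosis markers were lower (median -0.47, 2 at unadjusted p below 0.05), between the groups given doxorubicin 21 of 21 were higher with anti-PD-1 (median 0.60, 1 at that limit), and in anti-PD-1 against IgG1 13 of 21 were higher (median 0.08, 0 at that limit). In DOX/anti-PD-1 against anti-PD-1 11 of 21 were higher, with a median of 0.05 that became -0.07 under size factors. The 2 lower markers were Plk1 and Birc5 and the 1 higher was Birc5, named after their values were seen. DOX/IgG1 replicate 1 weighed on these counts. Without it, DOX/IgG1 against IgG1 had a median of -0.91 with 7 markers lower at that limit, and limma called Birc5, an inhibitor of apoptosis that also acts in chromosome segregation, at -2.26 (SE 0.33) with an adjusted p of 0.0389. Between the groups given doxorubicin 20 of 21 markers were then higher with anti-PD-1, with a median of 1.03 and 8 at that limit. The other replication genes were split, with 25 of 46 higher in DOX/IgG1 against IgG1 (median 0.08, and -0.02 under size factors) and 28 of 46 higher with anti-PD-1 after doxorubicin (median 0.13). With anti-PD-1 and no doxorubicin 34 of 46 were higher (median 0.19), 3 of them at unadjusted p below 0.05 beside 2 lower.

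The G1/S control genes include inhibitors and D cyclins, and 18 of 26 were higher in DOX/IgG1 than in IgG1 tumors, with a median of 0.10 that became -0.02 under size factors. The 3 of them at unadjusted p below 0.05 were Cdkn1a, Ccnd2 and Ccnd1, here and over both antibodies. Under size factors 21 of 26 were higher with anti-PD-1 and no doxorubicin (median 0.21), and 17 of 26 with anti-PD-1 after doxorubicin (median 0.23). Cdkn1a, the p53 target p21 that stops cyclin-dependent kinases, measured 15.2, 12.4 and 8.99 TPM in the IgG1 tumors, 14.02, 10.7 and 29.3 with anti-PD-1, 54.8, 36.4 and 29.6 with DOX/IgG1 and 23.95, 13.7 and 67.6 with DOX/anti-PD-1. Each DOX/IgG1 tumor was above each IgG1 tumor, and the DOX/anti-PD-1 tumors overlapped the anti-PD-1 tumors. Over both antibodies its log2 fold change with doxorubicin was 1.19 (SE 0.36), with an adjusted p of 0.250 from limma and an exact permutation p of 0.03. Ccnd2, cyclin D2, measured 8.58, 9.10 and 12.5 TPM in the IgG1 tumors, 10.8, 12.5 and 10.8 with anti-PD-1, 12.1, 44.5 and 47.96 with DOX/IgG1 and 21.2, 13.1 and 29.7 with DOX/anti-PD-1. DOX/IgG1 replicates 2 and 3, low in the members, were its highest tumors. It had 1.14 (SE 0.32), with an adjusted p of 0.233 from limma, and without DOX/IgG1 replicate 1 it was called, at 1.45 with an adjusted p of 0.0143, as it was in DOX/IgG1 against IgG1, at 2.11 with an adjusted p of 0.0413. Ccnd1, cyclin D1, measured 67.00, 86.1 and 72.7 TPM in the IgG1 tumors, 62.7, 68.4 and 123 with anti-PD-1, 147, 110.4 and 182 with DOX/IgG1 and 83.8, 89.1 and 98.7 with DOX/anti-PD-1, and it had 0.54 (SE 0.19) with an adjusted p of 0.305 from limma.

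Among the other replication genes Top2a, the topoisomerase II that doxorubicin traps, measured 112, 128 and 131 TPM in the IgG1 tumors, 137, 168 and 124 with anti-PD-1, 107, 33.6 and 85.5 with DOX/IgG1 and 115, 155 and 60.1 with DOX/anti-PD-1. The lowest tumor was DOX/IgG1 replicate 2. Its log2 fold change with doxorubicin over both antibodies was -0.66 (SE 0.28), with an adjusted p of 0.374 from limma. Rnaseh2b, a subunit of the nuclease that removes ribonucleotides from DNA, measured 16.4, 28.6 and 20.7 TPM in the IgG1 tumors, 21.5, 23.4 and 26.4 with anti-PD-1, 15.3, 12.8 and 10.9 with DOX/IgG1 and 26.3, 18.7 and 16.9 with DOX/anti-PD-1, and the 3 DOX/IgG1 tumors were the lowest of all. It had -0.45 (SE 0.20). Donson, a replication fork protein, measured 9.79, 25.96 and 28.9 TPM in the IgG1 tumors, 29.4, 27.2 and 30.7 with anti-PD-1, 29.2, 34.5 and 43.2 with DOX/IgG1 and 29.6, 37.4 and 49.4 with DOX/anti-PD-1, with each DOX/IgG1 tumor above each IgG1 tumor, and it had 0.60 (SE 0.25). Rrm2b, the p53-induced subunit of ribonucleotide reductase, measured 8.80, 18.3 and 10.9 TPM in the IgG1 tumors, 19.6, 14.9 and 15.8 with anti-PD-1, 15.3, 15.4 and 26.3 with DOX/IgG1 and 11.4, 12.02 and 23.4 with DOX/anti-PD-1, with overlap between groups and a value of 0.20 (SE 0.26).

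Mki67, the proliferation marker Ki-67, measured 57.01, 152 and 98.1 TPM in the IgG1 tumors, 149.7, 137 and 98.2 with anti-PD-1, 81.5, 25.2 and 51.7 with DOX/IgG1 and 149.7, 89.4 and 33.9 with DOX/anti-PD-1. DOX/IgG1 replicate 2 was the lowest tumor for Mki67, as it was for the mean of the members and for the mean of the mitosis markers, which was 2.98 there and between 3.53 and 4.75 in the other 11 tumors. Over both antibodies Mki67 had -0.84 (SE 0.37) with doxorubicin, with an adjusted p of 0.391 from limma and an exact permutation p of 0.07.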

How the data were processed

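RNA of 12 whole tumors was quantified by the authors, who trimmed reads with skewer and used STAR and RSEM with mm10 (versions not stated). The deposited unit is other than counts, log2(TPM + 1), and TPM was restored by reversing it. Members and lists were chosen with earlier results of these data known. Genes were fitted with limma 3.58.1 (R 4.3.3; mean-variance trend; Benjamini-Hochberg over all genes tested) on log2(TPM + 1), within the 6 tumors of a pair of groups, or over 12 with 1 mean per group. Genes with at least 1 TPM in at least 3 tumors were tested, and calls needed adjusted p below 0.1 and absolute log2 fold change above 1. The fit was tested on simulated data. Exact permutation tests (numpy 2.4.6, Python 3.11.15) were two-sided. Values in every tumor are given for the most abundant member of each role, for up to 3 members a direction without overlap, and for further members where the text says so; Mcm3, Cdc6, Gins1, Prim1 and Rrm2 were added after their values were seen. Pathway genes were named by unadjusted p below 0.05 with doxorubicin over both antibodies, up to 3 a direction, besides Mki67, Top2a, Cdkn1a, Ccnd1 and Rrm2b. Gene positions are GENCODE M21. Alternatives tried were log2(TPM + 0.1), no minimum or 5 TPM, all 12 tumors in 1 fit, replicate numbers as a block, size factors, no trend, each tumor left out, and for the member mean the median, centred values and subtraction of the epithelial mean. No sample was left out. Set tests were not run.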

Additional observations from a re-analysis of the deposited data

How the results depend on the processing

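With 3 tumors a group, no read counts and whole tissue, small differences and cell content could not be resolved, and a p that missed its limit does not show that values did not differ. Log2 fold changes were followed across settings for only some of the genes named in each comparison. Left out were, among others, E2f2 and Lig1 for doxorubicin under IgG1, and Prim1 and Fen1 for anti-PD-1 alone. So were Lig1, Pole2, Rfc4, Rrm1, Rrm2 and Ccne2 for anti-PD-1 after doxorubicin, and Rrm1 and Tk1 for the mean of both doxorubicin comparisons. Of the values followed, 556 kept their direction and side of the limit and 2 passed it, both without DOX/IgG1 replicate 1. The 2 were Gmnn, against 2 tumors listed at 0, and Ccnd2 at 1.45, each with doxorubicin over both antibodies. None of these changed direction. Outside that set, Birc5 (-2.26) and Ccnd2 (2.11) also passed it in DOX/IgG1 against IgG1 without that tumor. The size factors and left-out tumors for the member mean, the left-out tumors for the correlation between members, and the mean of both anti-PD-1 comparisons were chosen after seeing the data. The medians by role and the list counts without DOX/IgG1 replicate 1 were chosen then too. Where a count moved, the cause was not tested. A count in another setting that has no share of all genes beside it cannot be read as a result about the members.

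Members lower at unadjusted p below 0.05 became 5 (from 3) in DOX/IgG1 against IgG1, 1 (from 0) in DOX/anti-PD-1 against anti-PD-1 and 2 (from 1) with doxorubicin over both antibodies in the fit with the replicate block. Whether the numbers pair the tumors is not given. With group means subtracted, tumors of different groups with the same number correlated between -0.096 and 0.134. Those with different numbers correlated between -0.190 and 0.113. Size factors gave 2 lower in DOX/anti-PD-1 against anti-PD-1 and 4 with doxorubicin over both antibodies. Without a trend 1 was lower in DOX/anti-PD-1 against anti-PD-1. With all 12 tumors in 1 fit 1 was higher (from 4) in anti-PD-1 against IgG1. With doxorubicin over both antibodies, log2(TPM + 0.1) gave 2 lower, no minimum gave 1 higher, and 5 TPM gave 0 lower. The difference of the median over members in place of their mean was -0.012 in DOX/IgG1 against IgG1 and 0.078 for the interaction. After subtraction of the epithelial mean the difference was 0.067 in DOX/IgG1 against IgG1, 0.57 in anti-PD-1 against IgG1 and -0.15 for the interaction, with a pooled SD between tumors of 0.20.

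With each tumor left out in turn, DOX/IgG1 against IgG1 gave 0 to 1 members higher and 0 to 5 lower at that limit, and a median of -0.37 to 0.047. DOX/anti-PD-1 against anti-PD-1 gave 0 to 3 higher and 0 to 2 lower. Anti-PD-1 against IgG1 gave 0 to 6 higher and 0 to 1 lower. DOX/anti-PD-1 against DOX/IgG1 gave 4 to 11 higher and 0 to 1 lower, and a median of 0.32 to 0.64. Doxorubicin over both antibodies gave 0 to 1 called, 0 to 1 higher and 0 to 3 lower, anti-PD-1 over both chemotherapy arms 6 to 12 higher, and the interaction 1 to 5 positive, 0 to 1 negative and a median of 0.12 to 0.51. The median correlation between members ran from 0.14 to 0.25. Among named genes, with doxorubicin over both antibodies, Donson ran from 0.36 to 0.73, Mki67 from -1.08 to -0.55, Top2a from -0.83 to -0.41 and Rrm2b from 0.05 to 0.34, and Mcm3 with anti-PD-1 over both chemotherapy arms ran from 0.49 to 0.91.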

Other observations

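Adipocyte mRNA, read from 8 markers with Cfd the most abundant, summed to 126, 389 and 322 TPM in the IgG1 tumors, 184, 137 and 212 with anti-PD-1, 214, 1068 and 189 with DOX/IgG1 and 970.1, 355 and 298 with DOX/anti-PD-1. All 8 were higher with doxorubicin over both antibodies, with a difference of 0.95 for the list mean, and that difference was 1.44 in DOX/anti-PD-1 against anti-PD-1. In IgG1 replicate 1, 2 of the 8 were at 0. Their part in the members' values was not tested.

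Fibroblast mRNA, read from 7 markers with Col1a1 the most abundant and none at 0, summed to 1194, 1149 and 1804 TPM in the IgG1 tumors, 928, 847 and 684 with anti-PD-1, 528, 1822 and 1289 with DOX/IgG1 and 1061, 1408 and 1582 with DOX/anti-PD-1. The anti-PD-1 tumors lay below the IgG1 tumors, and DOX/IgG1 replicate 1 was the lowest of the 12. The 5 NK cell markers, with Klrd1 the most abundant, summed to 11.2, 7.06 and 6.98 TPM with IgG1, 5.80, 11.9 and 20.7 with anti-PD-1, 6.72, 45.7 and 38.9 with DOX/IgG1 and 6.06, 24.8 and 14.5 with DOX/anti-PD-1. DOX/IgG1 replicates 2 and 3 were the highest for these markers. Skeletal muscle mRNA varied with no order by group. Its 7 markers, with Acta1 the most abundant, summed to 135, 30.5 and 542 TPM with IgG1, 555, 40.5 and 22.8 with anti-PD-1, 63.5, 153 and 190 with DOX/IgG1 and 881, 0.27 and 159 with DOX/anti-PD-1, and 6 of the 7 were at 0 in DOX/anti-PD-1 replicate 2. The part of these tissues in the replication genes was not tested.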
